A study of Mus musculus with 3 samples.

Results

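The genes described here encode lymphoid and AP-1 transcription factor families, measured as the ratio of RNA from mouse thymocytes that carry CD69 at a high level to RNA from Zap70-/- thymocytes. Members were taken by gene symbol, from Klf, Egr, Jun, Fosb, Fosl, Ets, Elf, Elk, Runx, Cbfb, Ikzf, Tcf, Lef1 and Sox. Bach, Bcl6, Bcl11, Foxo, Foxp, Myb, Myc, Maf, Id, Notch, Hes, Satb, Spi1 and Lmo were taken too. Klf2 and Runx3 were left out. Of the Id genes only Id1, Id3 and Id4 could match, so Id2 is not a member, and neither is Fos. The rule found 68 of 6795 measured genes, on 80 probes. Jun, Fosb, Egr1, Egr2, Ets1, Notch1, Tcf7 and Foxo1 also fit the rule, but no probe carried their symbol alone, so they are absent. Of the 68 genes, 60 belong to the families by function. The other 8 (Junos, Mybbp1a, Mybph, Mycbp, Mycbp2, Runx1t1, Tcf25 and Tcfl5) share only the opening letters of a family's symbols. The measurements come from 3 spotted 2-colour arrays. Each array carried RNA of CD69hi thymocytes purified from wild-type B6 (C57BL/6) mice together with RNA of unseparated thymocytes from Zap70-/- mice, which the titles call CD69lo. Cy3 labelled the CD69hi RNA on arrays 1 and 2, and on array 3 it was labelled with Cy5. Zap70 is a kinase of the T cell receptor (TCR), and CD69 marks thymocytes that have recently received a TCR signal, so the design asks which transcripts differ between signalled thymocytes and a thymus that lacks this signal. Purification and genotype differed together between the RNAs and cannot be told apart. The age and sex of the mice and the number of mice behind each array are not stated by the labels, and a p-value here reflects array-to-array spread alone, possibly technical.

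Thymocytes pass from a double-negative stage, in which Notch receptors and E proteins direct T-lineage commitment, to a double-positive stage with both coreceptors. A TCR signal at that stage activates MAP kinases, which switch on immediate early genes of the AP-1 (Jun and Fos) and Egr families. Egr factors in turn induce Id3, an inhibitor that binds E proteins and keeps them off DNA. Lef1, Runx, Ikaros, Bcl11b, Satb1 and Myb factors shape the double-positive and later stages.

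A spotted array of this kind gives a ratio and no level, so whether a gene was transcribed at all in either RNA cannot be read from it. Values are log2 ratios of CD69hi over Zap70-/- RNA, with 0 meaning equal, and in such bulk RNA fewer cells of a type and less RNA per cell cannot be told apart. The number of arrays, 3, limits the precision. The direction is likely rather than stated, since it rests on reading the deposited value as Cy5 over Cy3. With this reading the recombinase gene Rag1 of immature thymocytes had log2 ratios of -1.37, -1.42 and -0.77 on arrays 1 to 3 (limma adjusted p = 0.035, but 0.13 without array 1 and 0.18 without array 2). The terminal transferase gene Dntt averaged -1.05 ± 0.71 (SD, n = 3) and did not pass the test. The opposite reading would turn every sign given here.

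Of the 68 genes, 5 were higher and 5 lower in CD69hi RNA when p-values of limma were adjusted by the Benjamini-Hochberg method over all 8905 features and held to 0.05. The higher genes were Egr3, Id3, Lmo2, Lef1 and Spi1, and the lower ones were Notch3, Ets2, Klf3, Myb and Runx1. The share called was 14.7% of the members, against 6.94% of all features. In the higher direction it was 7.35% against 4.13%, and in the lower direction 7.35% against 2.81%. The median ratio of the 68 genes was -0.02, against 0.01 over all features. With raw p-values up to 0.05 there were 11 higher and 13 lower members, against 12% and 11.4% of all features. Egr3, Id3 and Lmo2 differed by at least 2-fold on each array in the higher direction, against 1.89% of features, and 0 members did so in the lower direction, against 0.955% of features. All 10 called genes exceeded 1.5-fold on every array, and no other member did, against 7.47% of features.

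**Figure D1:**
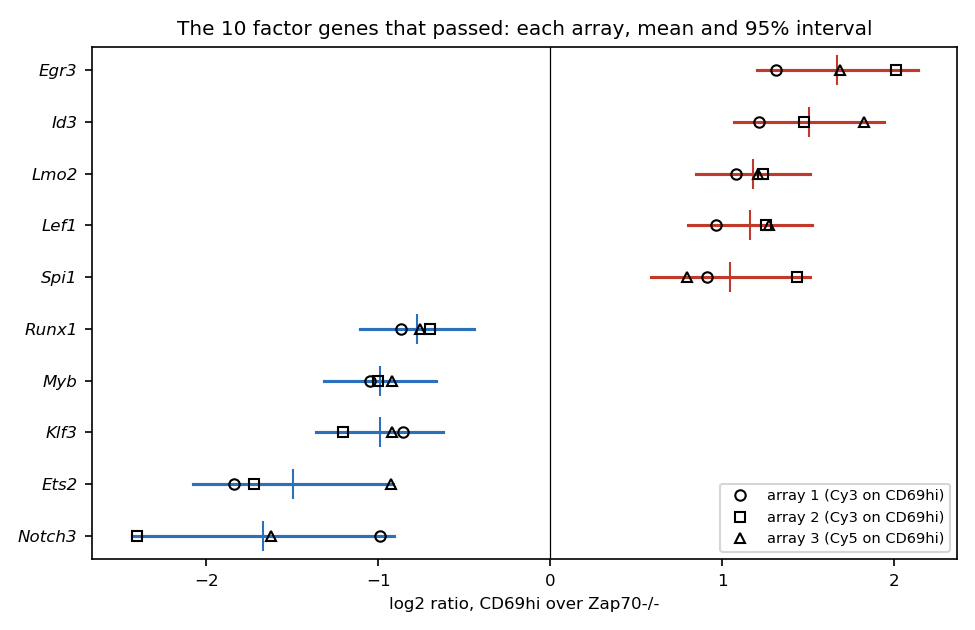
Log2 ratio of CD69hi over Zap70-/- RNA (horizontal axis) for the 10 factor genes that passed, with each array as a symbol, the mean as a tick and its 95% interval from the moderated fit as a line. Red genes were higher and blue genes lower in CD69hi RNA, and no array of any of the 10 genes lies across 0.

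Egr3, a zinc-finger factor that is switched on within minutes to hours of TCR engagement, had the highest ratio of the 68 genes. Its log2 ratios were 1.31, 2.01 and 1.68 on arrays 1, 2 and 3. All of them lay above 1, and the mean was 1.67 ± 0.35 (SD, n = 3), a 3.18-fold higher value in CD69hi RNA (limma adjusted p = 0.018). Id3, the E protein inhibitor that Egr factors induce, came next, with 1.22, 1.47 and 1.82. Every array was again above 1, with a mean of 1.503 ± 0.31 (SD, n = 3), or 2.83-fold (adjusted p = 0.020). The highest Id3 value came from the array with Cy5 on the CD69hi RNA and the lowest from array 1.

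Lef1, an HMG-box factor that acts with Tcf7 in thymocytes and favours the CD4 lineage, had ratios of 0.96, 1.25 and 1.27. The mean was 1.16 ± 0.17 (SD, n = 3), a 2.24-fold higher value (limma adjusted p = 0.023), and array 1 was the lowest. The related genes Tcf7l2 and Tcf7l1 lay above 0 on every array without passing. Tcf7l2 read 0.53, 0.90 and 0.96 (mean 0.79 ± 0.23, SD, n = 3, adjusted p = 0.0518), just beyond the threshold, and Tcf7l1 averaged 0.57 ± 0.34 (adjusted p = 0.15).

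Lmo2, a LIM-domain adaptor that bridges bHLH and GATA factors in blood progenitors, had the most even values of the 5 higher genes, at 1.08, 1.24 and 1.21. Its mean was 1.18 ± 0.08 (SD, n = 3), or 2.26-fold (limma adjusted p = 0.018). Its relative Lmo4 read 0.51, 0.65 and 0.77 and did not pass (mean 0.64 ± 0.13, adjusted p = 0.062). Spi1, which encodes PU.1, a factor of myeloid and B cells that T-lineage cells switch off at commitment, read 0.91, 1.43 and 0.80. Only array 2 exceeded a 2-fold difference. The mean of 1.05 ± 0.34 (SD, n = 3) was 2.07-fold higher in CD69hi RNA (adjusted p = 0.041). Myeloid cells transcribe both Spi1 and Lmo2, and most measured myeloid markers were higher in CD69hi RNA as well. Of 15 measured macrophage, dendritic cell and granulocyte markers, 9 rose and 1 fell, with a median ratio of 1.22 and a range from -1.98 to 2.83. The list median was 1.16, 1.61 and 1.34 on arrays 1 to 3. The cathepsin gene Ctss (2.83 ± 0.41, SD, n = 3), the lysozyme gene Lyz2 (2.51 ± 0.08) and Apoe (2.46 ± 0.14) led the list. S100a8, a granulocyte marker, was the 1 that fell (-0.86 ± 0.27, limma adjusted p = 0.049). Its call was lost on leaving out any array (adjusted p = 0.18, 0.35 and 0.052 without arrays 1, 2 and 3). S100a9, also of granulocytes, averaged -1.98 ± 1.17 and did not pass. None of 5 measured B cell markers passed (limma, 2 higher and 0 lower with raw p up to 0.05), with a median of 0.03. Cd79a was the highest of them, at 0.70, 2.10 and 1.40 (mean 1.40 ± 0.70, SD, n = 3, adjusted p = 0.062). Ms4a1 averaged 0.41 ± 0.19 (adjusted p = 0.18), and the lowest of the 5 means was -0.35. Of the other marker lists, 0 of 6 T-lineage genes (0 higher and 1 lower unadjusted), 0 of 5 thymic stroma genes (0 and 1) and 0 of 2 erythroid genes (1 and 0) passed. Of 4 natural killer genes, 1 fell and 3 did not pass (3 higher and 1 lower unadjusted), with a median of 0.53. The one that fell was Gzma (-2.29 ± 0.94, adjusted p = 0.039), whose call was lost on leaving out array 1 or 2 (adjusted p = 0.11 and 0.087) and on scaling the arrays to one spread (adjusted p = 0.052). The 2 measured markers of immature double-positive thymocytes are Rag1 and Dntt, given above, with a median of -1.12. The part of other cells in the Spi1 and Lmo2 ratios was not tested.

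Notch3, a Notch receptor that is itself induced by Notch signalling in immature thymocytes, had the lowest ratio of the 68 genes. Its arrays read -0.99, -2.40 and -1.62. The mean was -1.67 ± 0.71 (SD, n = 3), a 3.19-fold lower value in CD69hi RNA (limma adjusted p = 0.044). Array 2 was far below array 1, and the 95% interval ran from -2.44 to -0.91. The other measured Notch receptor, Notch4, known mainly from blood vessels, read 0.08, 0.44 and 0.05 and did not pass (mean 0.19 ± 0.22, adjusted p = 0.50).

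Ets2, an Ets factor that MAP kinases phosphorylate, read -1.84, -1.72 and -0.92. Arrays 1 and 2, of one dye orientation, lay well below array 3. The mean of -1.495 ± 0.50 (SD, n = 3) was a 2.82-fold lower value in CD69hi RNA (limma adjusted p = 0.033). Klf3, a zinc-finger repressor that recruits CtBP, fell with -0.86, -1.20 and -0.92 (mean -0.99 ± 0.18, SD, n = 3, 1.99-fold lower, adjusted p = 0.031). Each of its 2 probes passed when fitted alone, at -0.84 and -1.14.

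Myb, which sustains the survival of double-positive thymocytes, was the evenest of the 10 genes. It read -1.05, -1.002 and -0.92, which gives -0.99 ± 0.07 (SD, n = 3), or 1.99-fold lower (limma adjusted p = 0.024). Runx1, which double-negative and double-positive thymocytes need and which represses Cd4 early, read -0.87, -0.70 and -0.76. Its mean of -0.78 ± 0.09 (SD, n = 3) was the smallest change among the called genes, 1.71-fold lower (adjusted p = 0.039). Cbfb, the partner without which Runx proteins bind DNA weakly, had 0.03, 0.04 and 0.18. Its mean of 0.08 ± 0.09 did not pass (adjusted p = 0.74), and its 95% interval ran from -0.25 to 0.41.

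Promoter windows from RefSeq (GRCm38.p6, 250 bases before to 50 after a start site, 300 in all) were found for 50 of the 68 genes and for 7 of the 10 that passed. Those of 3 lower genes are shown because they are the called genes whose windows hold GCGGGGGCG, the only Egr recognition letters searched for. That of Id3 is shown because Egr factors are known to induce it. Each is written 5′ to 3′ on the gene's strand, with GCGGGGGCG in capitals. They lie at chr17:32166841-32167140 (minus strand) for Notch3, chr5:64803271-64803570 (plus strand) for Klf3, chr16:92697280-92697579 (minus strand, at the start site that holds the letters) for Runx1 and chr4:136143572-136143871 (plus strand) for Id3.
Notch3: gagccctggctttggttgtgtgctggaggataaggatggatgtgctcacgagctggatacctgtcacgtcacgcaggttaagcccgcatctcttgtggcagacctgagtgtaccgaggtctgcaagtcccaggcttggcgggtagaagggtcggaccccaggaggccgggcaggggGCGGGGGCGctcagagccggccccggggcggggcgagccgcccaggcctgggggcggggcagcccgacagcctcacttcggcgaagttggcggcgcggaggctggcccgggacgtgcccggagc
Klf3: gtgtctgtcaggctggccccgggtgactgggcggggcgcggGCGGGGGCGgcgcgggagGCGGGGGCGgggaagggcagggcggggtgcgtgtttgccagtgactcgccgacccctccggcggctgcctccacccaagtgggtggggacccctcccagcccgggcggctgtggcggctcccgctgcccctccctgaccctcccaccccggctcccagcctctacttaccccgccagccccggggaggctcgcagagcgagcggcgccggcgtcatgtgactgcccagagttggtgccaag
Runx1: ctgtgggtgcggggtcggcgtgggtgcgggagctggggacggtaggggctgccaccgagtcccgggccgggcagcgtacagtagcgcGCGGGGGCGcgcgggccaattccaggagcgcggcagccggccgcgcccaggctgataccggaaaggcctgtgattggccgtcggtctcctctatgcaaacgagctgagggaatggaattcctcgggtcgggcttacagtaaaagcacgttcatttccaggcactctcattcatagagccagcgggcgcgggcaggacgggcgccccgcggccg
Id3: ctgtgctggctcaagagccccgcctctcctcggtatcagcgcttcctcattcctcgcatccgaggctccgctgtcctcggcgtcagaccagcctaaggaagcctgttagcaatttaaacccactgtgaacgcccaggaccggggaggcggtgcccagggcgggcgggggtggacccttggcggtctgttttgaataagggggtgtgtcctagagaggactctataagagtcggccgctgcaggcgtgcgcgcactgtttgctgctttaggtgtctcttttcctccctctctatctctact

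Counted from the start site, the match begins at -74 in Notch3, at -209 and -191 in Klf3 and at -163 in Runx1. No GCGGGGGCG or its reverse complement CGCCCCCGC is in the Id3 window. Over both strands, this motif was in 3 of the 7 called genes with a window, in 9 of the 50 members (18%) and in 3.31% of all 27025 genes with windows, counting a gene once for any of its start sites. The other members with it were not called and went both ways. Lmo4 (0.64), Fosl2 (0.55) and Tcf7l2 (0.79) had mean ratios above 0. Klf4 (-0.71), Klf15 (-0.02) and Satb1 (-0.12) had means below 0. Members' windows were richer in G and C, with a median of 60.8%, against 52.7% for all windows, and windows with the motif had a median of 70%. The 50 members had 82 windows and the 27025 genes 32851, so members had more start sites per gene in which to match. The Runx letters TGTGGT were in 10% of members against 18.9% of genes, the AP-1 letters TGANTCA in 12% against 8.97%, the Ets letters CCGGAA in 14% against 16.7%, and the E protein letters CAGCTG and CACCTG in 24% and 28% against 18.3% and 22.6%. All were searched on both strands. Sequences for Egr3, Lmo2 and Spi1 were not used here. These matches describe letters in the windows, and binding was not measured.

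**Figure D2:**
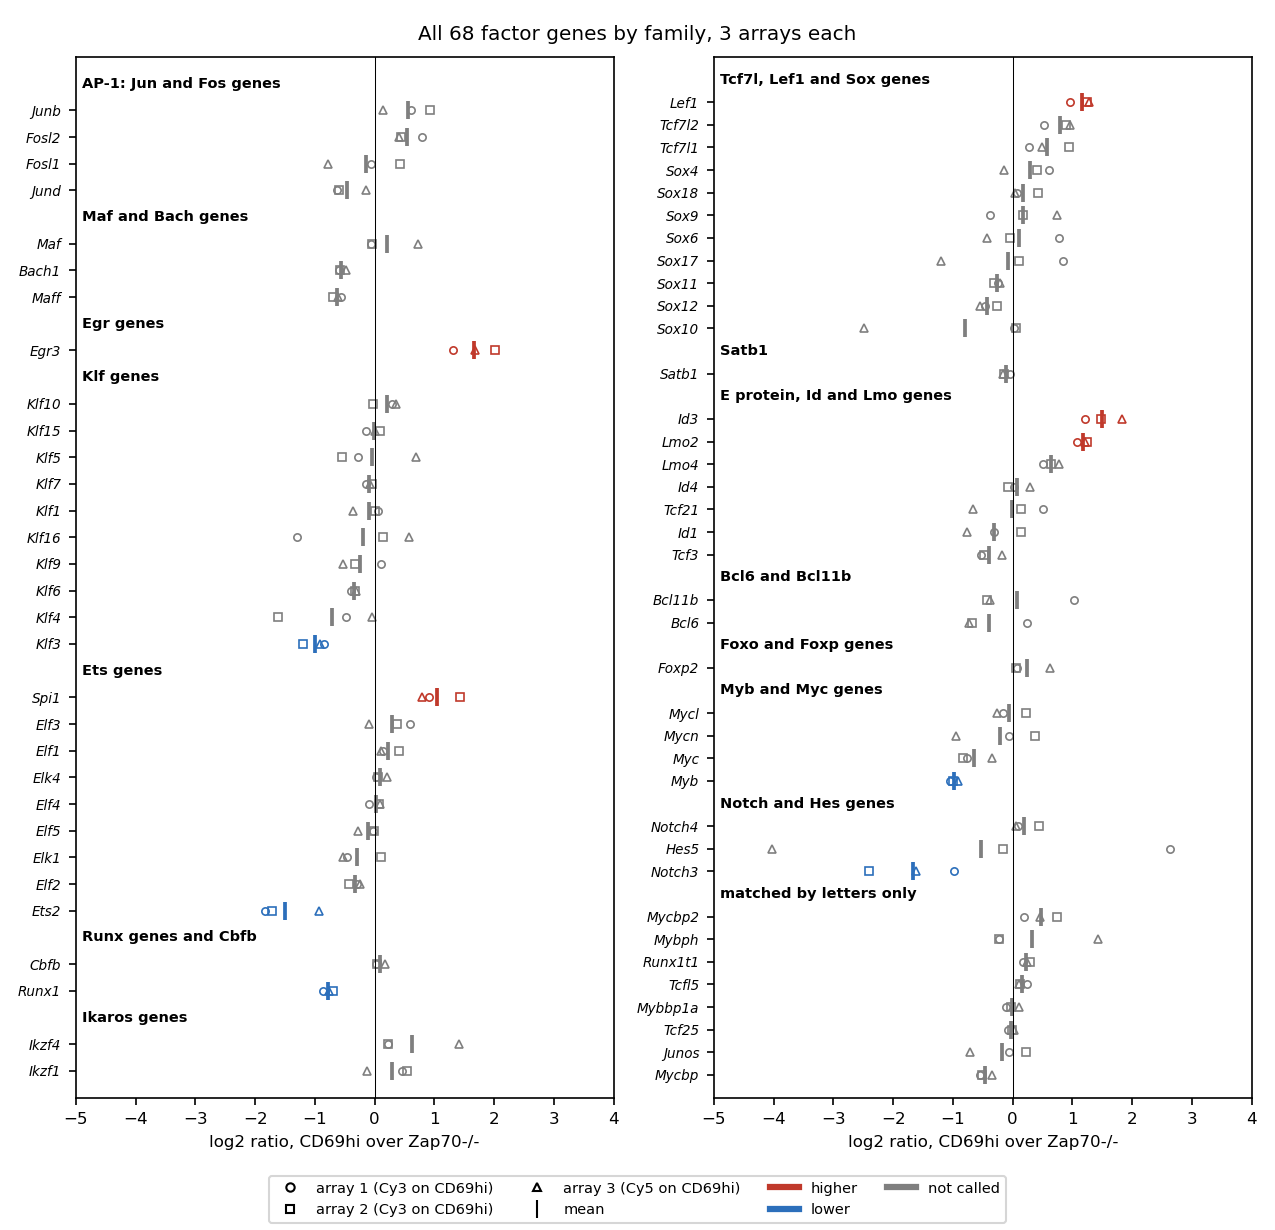
Log2 ratio of CD69hi over Zap70-/- RNA (horizontal axes) for all 68 genes by family, with 3 symbols for the arrays and a tick for the mean. Red and blue mark the 5 higher and 5 lower genes, and most other genes lie within 1 of 0, with Hes5, Sox10 and Sox17 spread widest between arrays.

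None of the 4 AP-1 members (Junb, Jund, Fosl1 and Fosl2) passed, and Jun and Fosb were not among the members. Fos is not a member, and it rose, as given with the AP-1 partners below. Junb, a Jun protein that TCR signals induce, read 0.61, 0.93 and 0.15 (mean 0.56 ± 0.39, SD, n = 3, limma adjusted p = 0.18). Fosl2 (Fra-2) read 0.79, 0.44 and 0.41 and averaged 0.55 ± 0.21 (adjusted p = 0.11). Both lay above 0 on every array. Jund, a Jun protein present in resting cells, read -0.63, -0.60 and -0.14 (mean -0.46 ± 0.27, adjusted p = 0.18). Its 2 probes disagreed, with 1 at 0.15 ± 0.22 and the other at -1.07 ± 0.35, and the lower one was called when probes were fitted alone (adjusted p = 0.042). Fosl1 spanned 0, from -0.79 to 0.42. Among the small Maf and Bach partners of AP-1, Maff read -0.57, -0.70 and -0.61 and just missed the threshold (mean -0.62 ± 0.07, adjusted p = 0.060), as did Bach1, a repressor that dimerises with small Maf proteins (-0.56 ± 0.06, adjusted p = 0.076). Maf itself was near 0 on arrays 1 and 2 and at 0.73 on array 3.

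Of 10 Klf members, Klf3 alone passed, and 9 had a mean below 0. Klf2, which the rule left out, went the other way and rose, as given with the Foxo targets below. Klf6, an early response Klf, read -0.40, -0.33 and -0.31 (mean -0.35 ± 0.05, SD, n = 3, limma adjusted p = 0.19). Klf4, linked to quiescence in T cells, ranged from -1.61 to -0.05 and did not pass (adjusted p = 0.28). Klf10 was the 1 Klf member with a mean above 0, at 0.21 ± 0.21. Klf7, at -0.09 ± 0.05, was also below 0 on every array. Klf1, Klf5, Klf9, Klf10, Klf15 and Klf16 had both signs among the arrays. Probes of a family as alike as the Klf genes can bind transcripts of relatives, so these values are uncertain.

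Of 9 Ets genes, Spi1 rose, Ets2 fell and 7 did not pass. Elf1, abundant in T cells, averaged 0.22 ± 0.17 and Elf2 -0.33 ± 0.09 (SD, n = 3, limma adjusted p = 0.41 and 0.22). Elf2 read -0.30, -0.43 and -0.25, below 0 on each array. Elk1 and Elk4, which join the serum response factor at immediate early genes, averaged -0.30 ± 0.35 and 0.09 ± 0.10. Elf4 was at 0.02 ± 0.10, and the epithelial genes Elf3 and Elf5 were at 0.29 ± 0.35 and -0.10 ± 0.16.

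Among the 7 E protein, Id and Lmo members, only Id3 and Lmo2 passed. Id2 is not a member, and it rose, as given with the Egr targets below. Tcf3, which encodes the E2A proteins that Id3 binds, read -0.53, -0.48 and -0.18 (mean -0.40 ± 0.19, SD, n = 3, limma adjusted p = 0.19). Id1 (-0.31 ± 0.46) and Id4 (0.08 ± 0.19) changed sign between arrays. The mesenchymal bHLH gene Tcf21 spanned 0, from -0.67 to 0.51.

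None of Satb1, Bcl11b, Bcl6, Ikzf1, Ikzf4 and Foxp2 passed (limma, 0 higher and 0 lower with raw p up to 0.05). Satb1, a chromatin organiser of thymocytes, read -0.04, -0.14 and -0.17, with a 95% interval from -0.44 to 0.21 around a mean of -0.12 (limma adjusted p = 0.63). Bcl11b, the T-lineage commitment factor, read 1.02, -0.43 and -0.39 (mean 0.07 ± 0.83, SD, n = 3, adjusted p = 0.92). That spread came from 1 probe that read 2.36 on array 1 and below 0 on the others, while the other probe read -0.31, -0.25 and -0.37. Bcl6, a repressor better known from follicular helper and germinal centre cells, read 0.25, -0.69 and -0.74 (adjusted p = 0.40). Ikzf1 (Ikaros) averaged 0.29 ± 0.36 (adjusted p = 0.41), with 1 probe even at 0.52 ± 0.05 and the other at 0.05 ± 0.67. Ikzf4 (Eos) read 0.23, 0.23 and 1.41 (adjusted p = 0.27). Foxp2, the 1 Foxo or Foxp gene among the members, averaged 0.25 ± 0.32 (adjusted p = 0.46), with 0.06, 0.06 and 0.62 on the arrays.

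Myc, the growth regulator, read -0.76, -0.83 and -0.35 and did not pass (mean -0.65 ± 0.26, SD, n = 3, limma adjusted p = 0.089). Leaving out array 3 (adjusted p = 0.045) or fitting a dye term (adjusted p = 0.048) brought Myc past the threshold. Mycn and Mycl changed sign between arrays, with means of -0.22 and -0.06. Of the Sox genes, Sox4, the member best known in lymphoid progenitors, averaged 0.29 ± 0.39 (adjusted p = 0.44), and Sox12 -0.43 ± 0.15 (adjusted p = 0.15). Sox18, known from vessels, read 0.07, 0.42 and 0.04 (mean 0.18 ± 0.22, adjusted p = 0.53), and its 2 probes lay apart at 0.70 ± 0.10 and -0.35 ± 0.35. Sox6, Sox9, Sox10 and Sox17 each had both signs, and Sox11 averaged -0.26 ± 0.05. The Notch target Hes5 read 2.63, -0.16 and -4.04, the widest spread of all members, and gives no usable mean. Of the 8 genes that match by letters only, 0 passed (limma, 1 higher and 1 lower with raw p up to 0.05). Mycbp, a Myc-binding protein, lay lowest at -0.47 ± 0.11 (adjusted p = 0.12), with -0.55, -0.51 and -0.34, and Mycbp2, a ubiquitin ligase, highest at 0.47 ± 0.28. Junos, an RNA opposite to Jun, averaged -0.19 ± 0.48, and its probe may not tell the strands apart.

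The arrays in the 2 dye orientations gave ratios of one sign for the called genes and of opposite sign for several others. The calls were made from these same 3 arrays and favour even values. One sign among the called genes is therefore no separate check of the dyes. Of the 68 genes, 39 had one sign on the 3 arrays (57.4%), against 47% of all features. Array 3 had the opposite sign to both other arrays for 12 members (17.6%), against 30.8% of features. Among the 10 called genes the dye orientations differed most for Ets2, at -1.78 for the mean of arrays 1 and 2 and -0.92 on array 3. Sox10 was at 0.04 and -2.49 in this reading, and Mybph, a myosin-binding protein, at -0.23 and 1.43. Their means describe neither orientation. Each member's value with Cy3 or Cy5 on the CD69hi RNA is in the plot of dye orientations.

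**Figure D3:**
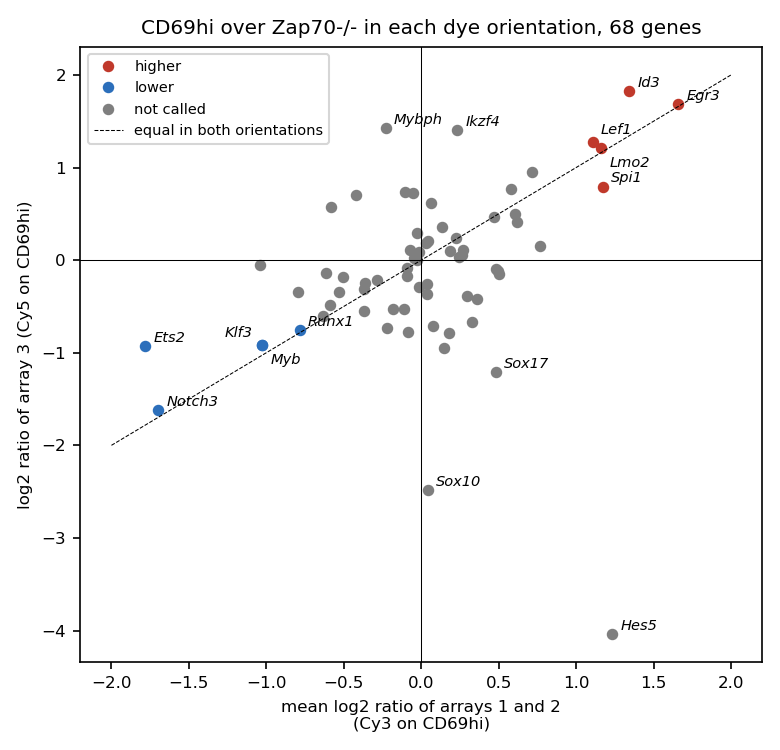
Each of the 68 genes by its mean log2 ratio on arrays 1 and 2 (horizontal axis) and on array 3 (vertical axis), both read as CD69hi over Zap70-/-. The 10 called genes lie in the quadrants of one sign, with Ets2 the farthest of them from the dashed line of equal values. Hes5, Sox10, Sox17 and Mybph lie farther still from that line.

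Each of the 10 calls needed array 2. Without it 0 of the 68 genes passed (limma, 7 higher and 5 lower with raw p up to 0.05), against 1.34% of all features, with adjusted p-values from 0.065 for Egr3 to 0.27 for Runx1. Without array 1, Egr3, Id3 and Notch3 passed (adjusted p = 0.035, 0.042 and 0.042), against 2.26% of features. Without array 3, 6 genes passed, Id3, Lmo2, Lef1, Myb and Ets2 of the 10 and also Myc, against 7.77% of features. The mean ratios of the 10 genes kept their signs in all 3 fits. One sign on every array fixes that in advance, so it is no check. With a dye term 16 members passed, against 12.1% of features. Notch3 and Spi1 were not among them (adjusted p = 0.074 and 0.0507), and 8 were gained (Bach1, Ikzf4, Lmo4, Maff, Mybph, Myc, Sox10 and Tcf7l2), in a fit with 1 residual degree of freedom. Notch3 and Spi1 also did not pass with the arrays scaled to one spread (adjusted p = 0.058 and 0.057). With no moderation of the variances 0 members (limma, 9 higher and 12 lower with raw p up to 0.05) and 0% of features passed, and with array 3 left unturned 0 members (0 higher and 1 lower unadjusted) and 0% of features passed.

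**Figure D4:**
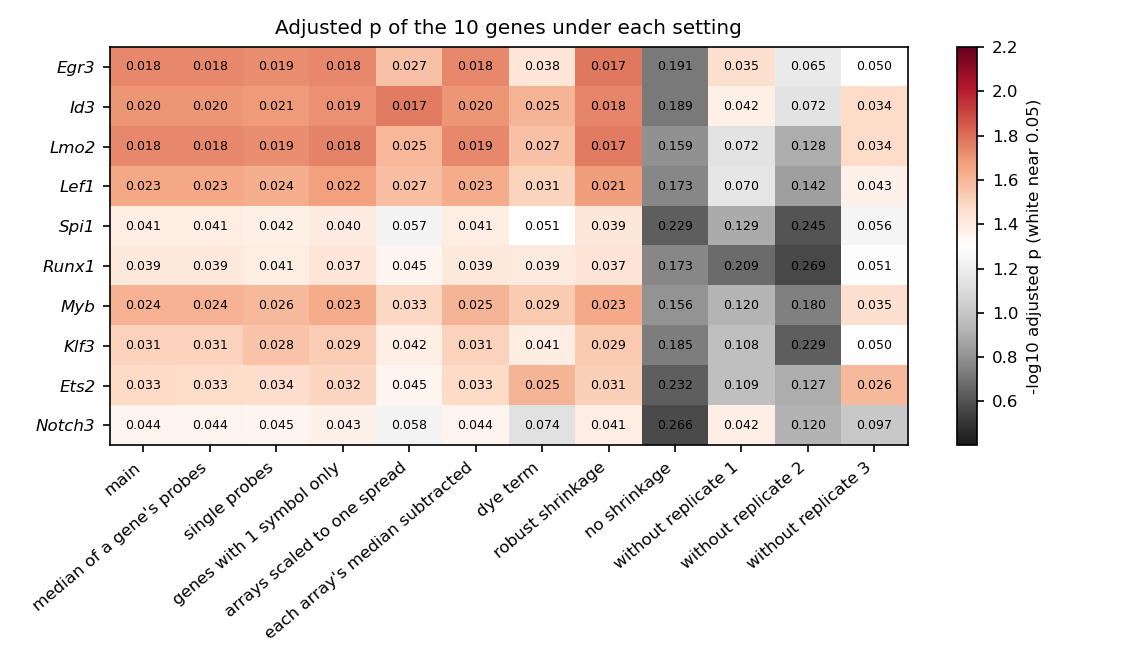
Adjusted p of the 10 called genes (rows, from the highest to the lowest mean ratio) under each setting (columns), printed in the cells and coloured by -log10, with red cells below 0.05, grey cells above and white near it. Without replicate 2, meaning array 2, and with no shrinkage of the variances, all 10 rows are grey.

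Partners and targets of the families were read from lists of genes that are not members. Of 8 AP-1 partners, 2 rose, 1 fell and 5 missed the threshold, with a list median of 0.18, against 0.01 over all features. Fos, the main dimer partner of Jun proteins, read 2.02, 2.47 and 2.04 (mean 2.18 ± 0.25, SD, n = 3, limma adjusted p = 0.0091). Batf, which dimerises with Jun proteins, rose with 1.501 ± 0.29 (adjusted p = 0.019), but its call was lost without array 2 (adjusted p = 0.067). The stress factor gene Atf5 fell (-0.91 ± 0.07, adjusted p = 0.030), a call that needed arrays 1 and 2 (adjusted p = 0.15 and 0.21 without them). Of 16 MAP kinase pathway genes upstream of AP-1 and Elk, 1 rose, 0 fell and 15 missed the threshold (7 higher and 0 lower unadjusted), with 15 means above 0 and a median of 0.36. The riser was Mapk11 (p38 beta), at 2.41, 2.90 and 2.94.

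Of 9 Egr regulators and targets, 6 rose and 0 fell (limma, 0 lower with raw p up to 0.05 as well), with a median of 1.11. Id2, the Egr co-repressor Nab2 and Cd5 were among them. The second co-repressor, Nab1, rose less (1.11 ± 0.25, SD, n = 3, adjusted p = 0.030), and the cytokine-signalling inhibitor Cish rose too (0.97 ± 0.18, adjusted p = 0.031). Leaving out array 1 or 2 ended the calls of Nab1 (adjusted p = 0.12 and 0.19) and Cish (adjusted p = 0.10 and 0.20). Il2rb passed only without array 1 among these fits (adjusted p = 0.13 without array 2 and 0.089 without array 3), and 3 of the 9 rose without array 2. This list overlaps the E protein list through Id2. Of 11 E protein partners and targets, Id2 rose, Rag1 and Socs3 fell and 8 gave no call, around a median of -0.07.

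On the side of Lef1, 2 of 20 Wnt pathway genes rose, 1 fell and 17 missed the threshold (median -0.004). Tle4, a Groucho co-repressor that Lef1 and Tcf proteins bind, rose (0.92 ± 0.17, SD, n = 3, limma adjusted p = 0.033), as did the cyclin Ccnd1 (0.81 ± 0.10, adjusted p = 0.037). The Wnt receptor Fzd5 fell (-0.73 ± 0.12, adjusted p = 0.046). Adjusted p-values of these 3 genes lay between 0.11 and 0.17 without array 1 and between 0.24 and 0.38 without array 2, and Tle4 and Fzd5 also lost their calls without array 3 (adjusted p = 0.0517 and 0.061). Of 19 Notch ligand, processing and target genes, Maml2, a co-activator of Notch, rose (1.15 ± 0.33, adjusted p = 0.033), 0 fell (0 lower unadjusted) and 18 gave no call, around a median of 0.02. Maml2 passed in no fit that left out an array (adjusted p = 0.072, 0.19 and 0.067).

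Of 23 Myc partners and targets, 0 rose (limma, 2 with raw p up to 0.05), 2 fell and 21 gave no call, around a median of -0.20. Both that fell encode Max-binding antagonists of Myc. Mxd3 read -2.78, -2.62 and -1.003 (adjusted p = 0.048) and Mxi1 -0.85, -0.87 and -0.76 (adjusted p = 0.034), and neither passed without array 1 (adjusted p = 0.13 and 0.17) or array 2 (adjusted p = 0.13 and 0.28). Of 18 Foxo regulators and targets, 6 rose and 0 fell (3 lower unadjusted), with a median of 0.19. They were Klf2, Il7r, Ccr7, the egress receptor S1pr1 (1.84 ± 0.52, SD, n = 3, adjusted p = 0.024), the pseudokinase Trib1 (1.23 ± 0.11, adjusted p = 0.0175) and the stress gene Gadd45a (0.88 ± 0.22, adjusted p = 0.041). Without array 2 the calls of S1pr1, Trib1 and Gadd45a were lost (adjusted p = 0.065, 0.11 and 0.25), as were those of Trib1 and Gadd45a without array 1 (adjusted p = 0.066 and 0.12) and that of Gadd45a without array 3 (adjusted p = 0.054).

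Of 14 Runx and Ikaros partners and lineage factors, Gata3, Zbtb7b and Tox rose and Patz1, a zinc-finger repressor that binds the Cd8 locus, fell (-0.84 ± 0.18, SD, n = 3, limma adjusted p = 0.041). The call of Patz1 was lost without array 1 or 2 (adjusted p = 0.17 and 0.33), and that of Gata3 without array 2 (adjusted p = 0.0515). Among 6 partners of Bcl6 and Bcl11b, Prdm1, which encodes the Bcl6 antagonist Blimp-1, rose (1.01 ± 0.16, adjusted p = 0.028), but not without array 1 or 2 (adjusted p = 0.12 and 0.21), and 0 fell (0 lower unadjusted). Of 9 other Ets factors 0 passed (2 higher and 0 lower unadjusted), with Etv3 at 0.56 ± 0.12 and Fli1 at 0.40 ± 0.07. These counts stand beside a background of 6.94% of features called, and the lists were written with earlier results of these data known.

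**Figure D5:**
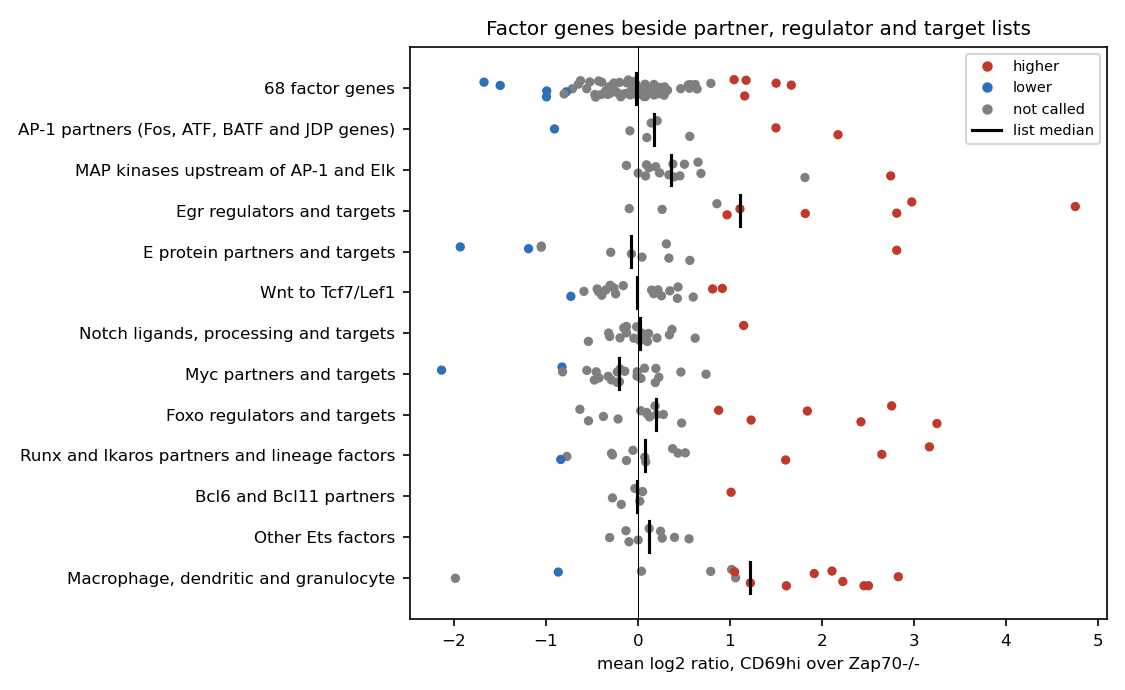
Mean log2 ratio of CD69hi over Zap70-/- RNA (horizontal axis) for the 68 factor genes and for the lists of partners, regulators and targets, 1 point a gene, with called genes in red and blue and the list median as a black line. Among the lists plotted, the medians lie between -0.20 and 0.36 except for the Egr list at 1.11 and the macrophage, dendritic cell and granulocyte markers at 1.22.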

How the data were processed

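Total RNA of mouse thymocytes was compared directly on 3 2-colour arrays. The authors deposited 1 log ratio per probe and array (9596 probes), taken here as log2 values. The base, the background correction and any dye normalization were not given in the sources used. The deposited log2 values had medians of -0.004, -0.005 and -0.002 on the arrays and reached -9.40. As a natural logarithm every fold would be larger. No spot intensities were used here, and no spot was left out for dimness.

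Arrays 1 and 2 were multiplied by -1 to read CD69hi over Zap70-/-. Before turning, array 3 correlated across probes at r = -0.25 with array 1 and -0.40 with array 2, and arrays 1 and 2 at 0.61. Probes with 1 gene symbol (7486) were averaged per symbol. Probes with several (483) or no symbol (1627) stood alone, which gave 8905 features. Another 8 probes that name a family gene beside other genes were not used for members. Entrez identifiers of 7395 of the probes were found in RefSeq and changed 0 symbols.

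limma 3.58.1 in R 4.3.3 fitted 1 mean per feature (lmFit, eBayes, 2 residual and 2.75 prior degrees of freedom), two-sided, with Benjamini-Hochberg adjustment and 0.05 as threshold. On simulated data of 8905 features, 29.6% of shifts of 1 and 70% of shifts of 2 on the log2 scale were recovered, with 18 of 516 calls false. The simulated noise was independent between arrays and held no dye effect, so these shares need not hold for the real arrays. Values on every array are given for called members, for the uncalled member of each family with the largest moderated t and for members whose probes differ in sign, and also for Junb, Tcf3 and Hes5, which were added after their values were seen. Other members are named with fewer values. In each list up to 4 called genes with the largest ratios were named, and Nab1, Cish, Trib1, Gadd45a, S100a8 and S100a9 were added after their values were seen. Motifs and printed promoters were also chosen after values were seen. The members and lists were chosen with earlier results of these data known. Alternatives were other probe rules, scaling, centring, a dye term, other variance moderation and leaving out each array.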

Additional observations from a re-analysis of the deposited data

How the results depend on the processing

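The counts of called members depended on the arrays. Leaving out 1 array gave 0 to 3 higher and 0 to 3 lower members, and 3 to 5 members past 2-fold on every array left. With 1.5-fold in place of 2-fold, 10 members passed on every array. A dye term gave 8 higher and 8 lower members. With no shrinkage of the variances the counts were 0 and 0 (9 and 12 unadjusted), and with array 3 left unturned, an alternative chosen after seeing the data, 0 and 0 (0 and 1 unadjusted). The other settings (median of probes, single probes, genes with 1 symbol only, scaling, centring and robust shrinkage) kept each count within 1.5 times. Single probes added Jund, and the genes-only fit and robust shrinkage added Tcf7l2. The cause of these changes was not tested, though a fit without an array has fewer residual degrees of freedom. No called member changed sign in any fit that turned array 3. Each had one sign on all 3 arrays, so this is no separate check. Each ratio already compares the RNAs within 1 array, so the fit is paired by array. The dye orientation is a known block of the arrays, and the main fit left it out. In the dye-term fit the median size of the dye coefficient was 0.186, against 0.255 for the CD69hi over Zap70-/- ratio. Signal over background is unknown here, so dim spots may add to the spread between arrays.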
